A study of Mus musculus with 16 samples.

Results

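The mRNAs of the nuclear subunits of respiratory complex I were followed in brown adipose tissue (BAT) and gonadal white adipose tissue (gWAT) of mice lacking phosphoglycerate mutase 1, encoded by Pgam1, in adipocytes. Members were taken by symbol, as genes named Ndufa, Ndufb, Ndufc, Ndufs or Ndufv with a number, or Ndufab1, without the assembly factors named Ndufaf and without pseudogenes. The array had a named probe for 38 such genes, of 22911 named genes in all, and 3 further symbols of the kind, Ndufb1, Ndufb4b and Ndufb4c, had none. Of the 38 genes, 36 encode subunits of complex I, of which 7 are core and 29 accessory, and Ndufa4 and Ndufa4l2 match by symbol only. Ndufa4 is now counted with complex IV, and Ndufa4l2 is its paralog.

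The 4 groups were male mice of strain C57BL/6NCrSlc by their labels, with 4 arrays each and 16 arrays in all. In Adipo-Pgam1 KO mice, Cre recombinase under the adiponectin (Adipoq) promoter acts on both floxed Pgam1 alleles. The deletion is thus directed to adipocytes and to any other cells in which this promoter is active. The study proposes that the deletion also took place in preadipocytes of gWAT, in which it reports markedly lower Pgam1. Littermate controls carry the same floxed alleles without Cre. Mice were 16 weeks old, other than replicate 4 of each Adipo-Pgam1 KO group, which was 14 weeks old, and labelled RNA was made from whole tissue. The labels name 1 mouse as the source of each array, and do not say whether BAT and gWAT arrays of 1 number come from the same animal.

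Complex I is the entry point of the respiratory chain, where NADH hands its electrons to ubiquinone while protons are pumped across the inner mitochondrial membrane. Its peripheral arm reaches into the matrix and holds the flavin and the iron-sulfur clusters, and its membrane arm holds the pumps. The core subunits carry out catalysis and are shared with the bacterial enzyme, whereas the accessory subunits stabilise and assemble the complex. The core subunits of the membrane arm are made from mitochondrial DNA under other symbols, so that the core subunits followed here all belong to the peripheral arm. Brown adipocytes are rich in mitochondria and run this chain to make heat, and white adipocytes hold far fewer.

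Levels are given as the log2 of a probe's background-subtracted signal over the 75th percentile of its array. Each gene was read from its brightest probe, and differences are differences of these log2 levels, so that levels of different genes cannot be ranked against each other. All 36 subunits were well above background on all 16 arrays. For 5 members with a second probe above background, both probes gave the same direction in both tissues. A second probe of Ndufa7 was well above background on 0 arrays. A difference was called when it passed an adjusted p of 0.05 in limma, adjusted over all genes tested in that comparison. Before the subunits, 3 facts of the arrays bear on the results. The 75th percentile lay between 401.3 and 451.3 on BAT control arrays and between 650.2 and 916.2 on BAT arrays of Adipo-Pgam1 KO mice. The arrays lay on 3 slides and were scanned on 2 days. In each tissue, 3 controls lay on a slide without Adipo-Pgam1 KO arrays of that tissue, while control replicate 4 shared a slide with all 4 Adipo-Pgam1 KO arrays. The slide with gWAT control replicate 4 and the labelled gWAT arrays was scanned on the later day, and all other arrays on the earlier day. Pgam1 itself was lower in BAT of the Adipo-Pgam1 KO mice by 1.74 but higher in gWAT, by 0.95 (adjusted p = 0.0139), and it is not known whether its probe lies in the deleted sequence. The gWAT arrays are therefore named by their label, and each direction in gWAT rests on that label. Apart from the arrays, the study reports reduced Pgam1 by PCR and Western blot, and reduced enzyme activity, in gWAT of Adipo-Pgam1 KO mice.

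The mRNA of each of the 36 subunits was lower in BAT of the Adipo-Pgam1 KO mice than in BAT of littermates and passed the threshold, against 34% of the 14280 genes tested that were called lower. For all 36 subunits the 4 Adipo-Pgam1 KO arrays lay below the 4 control arrays, which held in this direction for 31.9% of the genes tested. The median log2 difference was -1.18, against -0.08 over all genes tested, which is a level 2.26-fold lower. The differences ran from -2.08 for Ndufab1 to -0.74 for Ndufa8, with an SD of 0.27 over subunits, and 28 subunits were at least 2-fold lower. The size depends on the scaling, as the median was -0.68 under quantile normalization and -0.64 under spike-in scaling. In gWAT, 35 of the 36 subunits were higher on the arrays labelled Adipo-Pgam1 KO, on which Pgam1 was also higher, and 14 of them were called, against 9.99% of the 14149 genes tested that were called higher. The median log2 difference in gWAT was 0.60, against 0.05 over all genes tested. Under quantile normalization it was 0.35, with 29 of 36 subunits higher, and under spike-in scaling it was 1.04.

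**Figure D1:**
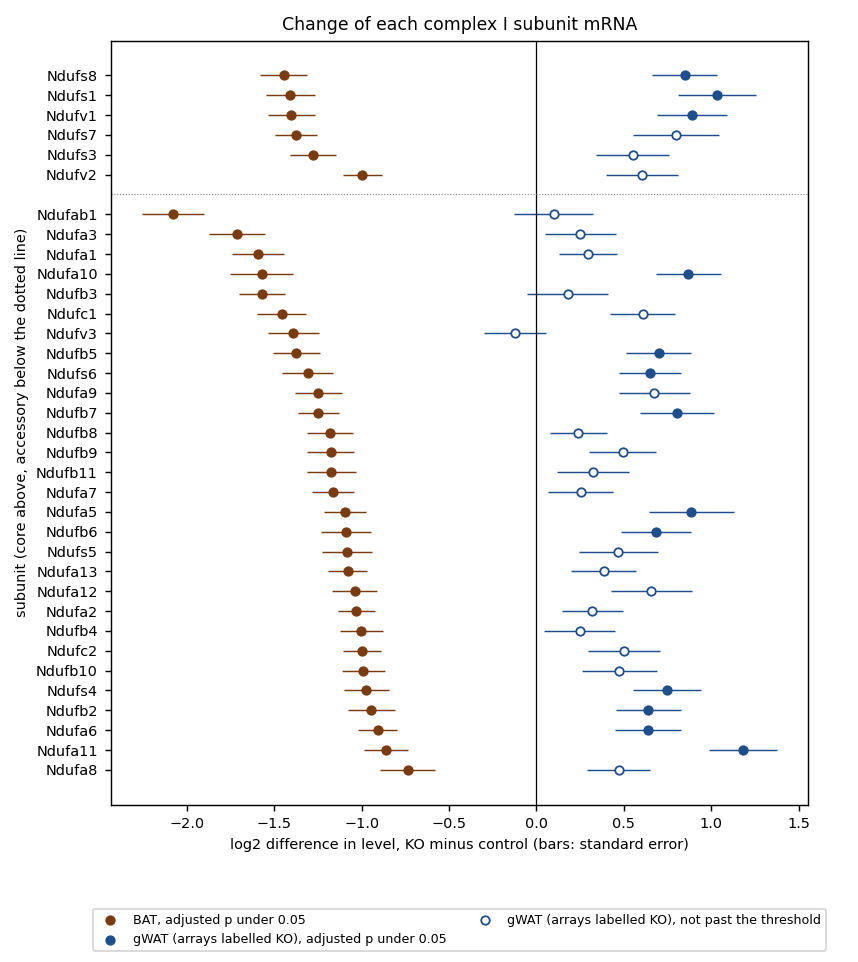
Log2 difference in level between Adipo-Pgam1 KO and littermate control arrays (horizontal axis) for each of 35 complex I subunits (vertical axis, core above and accessory below the dotted line), in BAT (brown) and gWAT (blue), with standard errors and filled points where the adjusted p was under 0.05. All points of BAT lie between -2.08 and -0.74, and those of gWAT between -0.12 and 1.18.

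The core subunits that take electrons from NADH were lower in BAT by about the same amount, other than Ndufv2. Ndufv1 binds the flavin and NADH. In BAT, its level was 9.08, 9.15, 9.26 and 9.25 on control replicates 1 to 4 and 7.84, 7.62, 7.56 and 8.11 on Adipo-Pgam1 KO replicates 1 to 4. In gWAT, Ndufv1 stood at 6.17, 6.16, 6.61 and 6.63 in controls and at 7.50, 7.41, 7.4 and 6.80 on the arrays labelled Adipo-Pgam1 KO. The groups did not overlap in either tissue, although replicate 4 of the labelled arrays came close to the controls in gWAT. The log2 difference of Ndufv1 was -1.40 in BAT (standard error 0.13, adjusted p = 4.65e-05) and 0.89 in gWAT (standard error 0.20, adjusted p = 0.0203). Its second probe differed by -1.53 and 0.99.

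Ndufs1, the largest core subunit, passes the electrons on through its iron-sulfur clusters. Its level in BAT was 8.22, 8.09, 8.38 and 8.13 in controls and 7.02, 6.62, 6.55 and 7.01 in Adipo-Pgam1 KO mice. In gWAT, it was 4.78, 5.0, 5.32 and 5.57 in controls and 6.50, 6.29, 6.30 and 5.72 on the arrays labelled Adipo-Pgam1 KO. The groups were again apart in both tissues. Ndufs1 differed by -1.41 in BAT (standard error 0.14, adjusted p = 5.88e-05), and its difference of 1.03 in gWAT (standard error 0.22, adjusted p = 0.0181) was the highest of the core subunits. Ndufv2, which holds a further iron-sulfur cluster of this module, changed least of the core subunits in BAT. Its level there was 8.0, 7.93, 8.03 and 8.0 in controls and 6.94, 6.93, 6.83 and 7.27 in Adipo-Pgam1 KO mice, a difference of -1.0 (standard error 0.11, adjusted p = 1.02e-04). In gWAT, Ndufv2 was 5.21, 5.49, 5.63 and 5.71 in controls and 6.37, 6.26, 6.27 and 5.55 on the labelled arrays. Replicate 4 of the labelled arrays lay within the control range, and the difference of 0.60 did not pass (standard error 0.21, adjusted p = 0.0758).

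Among the core subunits that reduce ubiquinone, Ndufs8, which holds a pair of iron-sulfur clusters, changed most in BAT. Its level was 8.59, 8.49, 8.57 and 8.36 in BAT controls and 6.97, 6.95, 6.90 and 7.43 in BAT of the Adipo-Pgam1 KO mice, a difference of -1.45 (standard error 0.14, adjusted p = 4.31e-05). The gWAT levels were 5.09, 5.24, 5.47 and 5.70 in controls and 6.36, 6.41, 6.32 and 5.81 on the arrays labelled Adipo-Pgam1 KO, a difference of 0.85 (standard error 0.19, adjusted p = 0.0195). Neither tissue showed an overlap.

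Ndufs7 and Ndufs3, also core subunits of this module, fell in BAT and did not pass in gWAT. Ndufs7 carries the last iron-sulfur cluster before ubiquinone. Its level was 8.78, 8.79, 8.82 and 8.69 in BAT controls and 7.44, 7.31, 7.17 and 7.66 in BAT of the Adipo-Pgam1 KO mice, a difference of -1.38 (standard error 0.12, adjusted p = 2.98e-05). In gWAT, it was 5.80, 6.34, 6.15 and 6.58 in controls and 7.42, 7.12, 7.12 and 6.41 on the labelled arrays, a difference of 0.80 (standard error 0.25, adjusted p = 0.0543). Here replicate 4 of the labelled arrays lay below control replicate 4. Ndufs3 was 8.55, 8.54, 8.6 and 8.57 in BAT controls and 7.45, 7.14, 7.01 and 7.55 in BAT of the Adipo-Pgam1 KO mice, a difference of -1.28 (standard error 0.13, adjusted p = 6.91e-05). In gWAT, Ndufs3 was 5.87, 6.20, 6.39 and 6.58 in controls and 7.08, 6.90, 6.92 and 6.33 on the labelled arrays, which overlapped, with a difference of 0.55 (standard error 0.21, adjusted p = 0.0996).

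**Figure D2:**
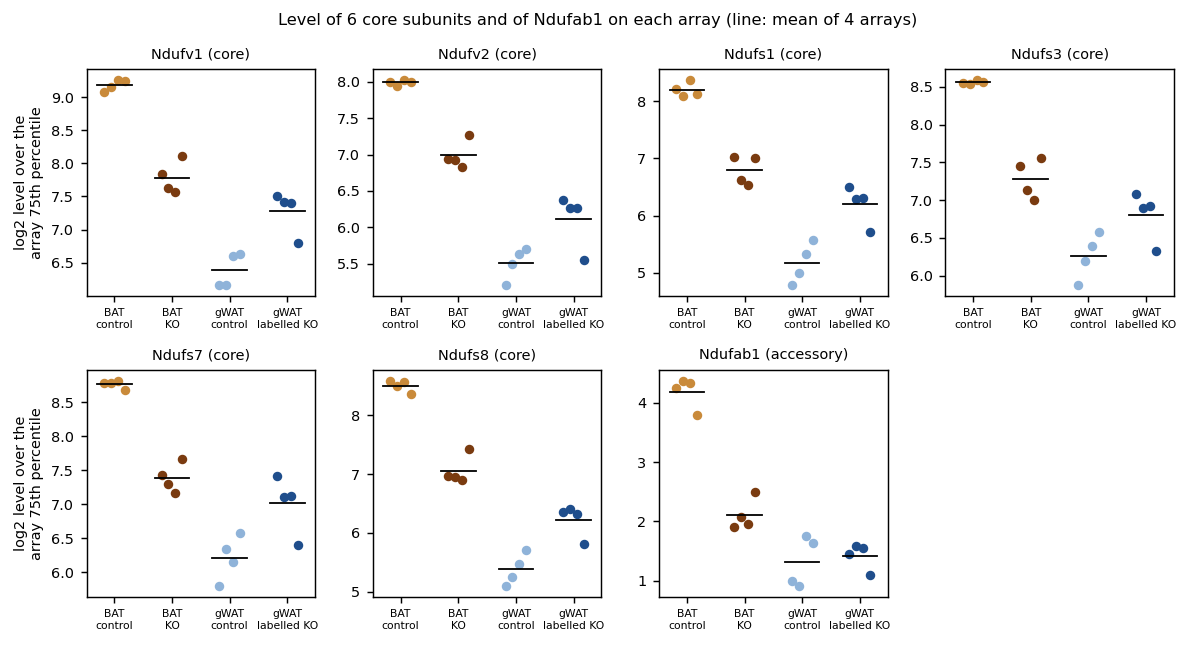
Log2 level over the array's 75th percentile (vertical axes, a separate scale for each gene) on each of 16 arrays for 6 of the 7 core subunits and for Ndufab1, by group, with the mean of 4 arrays as a line. The BAT groups do not overlap for any of the 7 genes, and the rightmost point of the gWAT arrays labelled Adipo-Pgam1 KO is replicate 4, which lies nearest to the controls for the core subunits shown.

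Read as a list, the core subunits had a larger median difference than the accessory subunits in both tissues, though the largest single differences were those of accessory subunits. In BAT, the median was -1.40 for the 7 core subunits and -1.16 for the 29 accessory subunits. In gWAT, the medians were 0.84 for the core and 0.49 for the accessory subunits, and 4 of 7 core and 10 of 29 accessory subunits were called higher on the arrays labelled Adipo-Pgam1 KO. Of the 10 subunits with the largest differences, 4 were core in BAT and 5 in gWAT. The highest rank of a core subunit was 7 in BAT and 2 in gWAT. Under quantile normalization, the gWAT medians were 0.62 for the core and 0.24 for the accessory subunits, and 1 accessory subunit, Ndufv3, was called lower. These are descriptions of the lists and carry no test. The peripheral arm and the membrane arm lay closer together in BAT, with medians of -1.26 over 16 subunits and -1.17 over 19, and in gWAT their medians were 0.67 and 0.47.

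Of the 5 accessory subunits with the largest falls in BAT, 4 did not pass in gWAT, against 19 of all 29 accessory subunits and 11624 of 14149 genes tested. Ndufab1, the mitochondrial acyl carrier protein, serves both complex I and the fatty acid synthesis of mitochondria. Its level in BAT was 4.26, 4.38, 4.33 and 3.79 in controls and 1.91, 2.08, 1.96 and 2.50 in Adipo-Pgam1 KO mice, a difference of -2.08 (standard error 0.18, adjusted p = 2.92e-05), or 0.237 of the control level. In gWAT, Ndufab1 was 0.99, 0.90, 1.75 and 1.64 in controls and 1.44, 1.59, 1.55 and 1.1 on the labelled arrays, which lay within the control range, with a difference of 0.10 (standard error 0.22, adjusted p = 0.795). Ndufa3, a small protein of the membrane arm, was 9.17, 9.15, 9.21 and 8.98 in BAT controls and 7.24, 7.31, 7.21 and 7.89 in BAT of the Adipo-Pgam1 KO mice, a difference of -1.71 (standard error 0.16, adjusted p = 4.26e-05). In gWAT it differed by 0.25 (standard error 0.20, adjusted p = 0.413). Ndufa1 and Ndufb3, also of the membrane arm, fell in BAT and did not pass in gWAT either. Ndufa1 differed by -1.59 in BAT (adjusted p = 4.27e-05) and by 0.29 in gWAT (adjusted p = 0.241), and Ndufb3 by -1.57 in BAT (adjusted p = 2.90e-05) and by 0.18 in gWAT (adjusted p = 0.622). Across the 36 subunits, which are not independent replicates, the differences in BAT and in gWAT had a Pearson's r of 0.21 and a Spearman's rho of 0.04.

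Ndufa10 was the 1 of these 5 that also passed in gWAT. It has the fold of a nucleoside kinase and sits on the matrix side of the membrane arm. Its level was 8.05, 8.02, 8.29 and 8.11 in BAT controls and 6.68, 6.27, 6.24 and 7.01 in BAT of the Adipo-Pgam1 KO mice, a difference of -1.57 (standard error 0.18, adjusted p = 1.12e-04). In gWAT, it was 4.95, 5.15, 5.33 and 5.36 in controls and 6.27, 6.17, 6.25 and 5.58 on the arrays labelled Adipo-Pgam1 KO. These groups did not overlap, and Ndufa10 differed by 0.87 in gWAT (standard error 0.19, adjusted p = 0.0174), with 0.91 on its second probe.

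Ndufa11 had the highest difference of all subunits in gWAT and was second from the smallest in BAT. It is a membrane subunit that lies where complex I meets complex III in the respiratory supercomplex. In gWAT, its level was 3.19, 3.09, 3.46 and 3.58 in controls and 4.76, 4.69, 4.57 and 4.03 on the labelled arrays, a difference of 1.18 (standard error 0.19, adjusted p = 0.0074). It stayed past the threshold in gWAT without any 1 of the 8 arrays, but did not pass with the slide as a fixed block. Ndufa10 passed in 5 of these 8 fits that each left out 1 array, and Ndufs1, Ndufs8 and Ndufv1 in 4 each. In BAT, Ndufa11 was 5.59, 5.67, 5.81 and 5.64 in controls and 4.65, 4.75, 4.71 and 5.15 in Adipo-Pgam1 KO mice, a difference of -0.86 (standard error 0.13, adjusted p = 4.48e-04). Beside Ndufa10, the next largest accessory differences in gWAT past the threshold were 0.89 for Ndufa5 (adjusted p = 0.0389), 0.80 for Ndufb7 (adjusted p = 0.0342) and 0.75 for Ndufs4 (adjusted p = 0.0324). Each of these 3 passed in 2 of the 8 fits that left out 1 array. Ndufa5 and Ndufs4 belong to the peripheral arm, where Ndufs4 helps to hold the NADH-oxidising module, and Ndufb7 faces the intermembrane space. In BAT, these 3 subunits differed by -1.10, -1.25 and -0.97.

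The promoters of subunits at the ends of the range are shown, with letters that match the motifs of 4 factors known to act on genes of the respiratory chain. The motifs were GCATGCGC for NRF1, AAGGTCA for the estrogen-related receptors, CCGGAAG for GABPA and AAGATGG for YY1, searched on both strands from 250 bases before to 50 after each start in RefSeq promoters of build GRCm38.p6. The table held 34 promoters of 32 subunits. Ndufab1 fell most in BAT, Ndufa8 fell least, and Ndufa11 had the highest difference in gWAT. The 120 bases before the start of each are given from 5′ to 3′ on the strand of the gene, with matches in capitals. They are chr7:122101849-122101968 on the minus strand for Ndufab1, chr2:36049339-36049458 on the minus strand for Ndufa8 and chr17:56717642-56717761 on the plus strand for Ndufa11.
Ndufab1: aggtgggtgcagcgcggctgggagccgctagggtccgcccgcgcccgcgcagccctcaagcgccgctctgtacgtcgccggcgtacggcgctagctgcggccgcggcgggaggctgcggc
Ndufa8: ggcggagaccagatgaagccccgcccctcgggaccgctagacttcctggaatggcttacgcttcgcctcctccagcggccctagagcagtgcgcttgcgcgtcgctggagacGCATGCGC
Ndufa11: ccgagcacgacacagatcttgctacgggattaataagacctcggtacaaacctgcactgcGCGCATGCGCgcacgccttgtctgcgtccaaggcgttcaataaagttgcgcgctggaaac

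The capitals in Ndufa8 and Ndufa11 match the NRF1 motif, in Ndufa11 on both strands in overlapping positions, and the letters of the 4 motifs were not in the 120 bases of Ndufab1. Over the whole window, the NRF1 letters were in 3 of 34 subunit promoters (8.82%, against 2.71% of all 32851 promoters), those of Ndufa6, Ndufa8 and Ndufa11. The letters for the estrogen-related receptors were in 3 (8.82%, against 4.72%), those of Ndufb2, Ndufb4 and Ndufs5. The GABPA letters were in 4 (11.8%, against 8.86%), those of Ndufb6, Ndufb7, Ndufs3 and Ndufs8. The YY1 letters were in 7 (20.6%, against 6.34%), those of Ndufa3, Ndufa9, Ndufb8, Ndufc1, Ndufs4, Ndufs6 and Ndufs7, and in each of the 7 they began 23 to 39 bases after the start. A match of letters is a description and was not tested as a site. Ndufa8, Ndufa6 and Ndufa11, which hold the NRF1 letters, had log2 differences of -0.74, -0.91 and -0.86 in BAT, the 3 smallest falls of the 36 subunits, and of 0.47, 0.64 and 1.18 in gWAT. A relation between these letters and the differences was not tested, and 4 subunits had no promoter to search.

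Ndufv3, a small subunit bound to the NADH-oxidising module, was the 1 subunit with a negative difference in gWAT. Its level there was 6.88, 7.14, 7.37 and 7.43 in controls and 7.20, 7.22, 7.19 and 6.71 on the labelled arrays. The groups overlapped widely, and the difference of -0.12 did not pass (standard error 0.18, adjusted p = 0.659). It passed as lower under quantile normalization, with -0.46 (adjusted p = 0.0109), and had the opposite sign under spike-in scaling, with 0.31, and without replicate 4 of the labelled arrays, with 0.00086. In BAT, Ndufv3 was 8.98, 8.93, 9.03 and 8.85 in controls and 7.60, 7.42, 7.26 and 7.95 in Adipo-Pgam1 KO mice, a difference of -1.39 (standard error 0.15, adjusted p = 7.99e-05).

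The number of subunits called in gWAT changed when single arrays were left out and when the slide was taken into account. When single arrays were left out, the median over the subunits stayed between 0.49 and 0.75. Of the 36 subunits, 23 had an unadjusted p under 0.05 in the higher direction and 0 in the lower direction in limma. By the methods' t-test these counts were 22 and 0. The share of all genes at this unadjusted threshold was not counted, so these counts are not set against it. After adjustment in limma, 0 subunits were called lower, against 7.85% of the genes tested. On the arrays labelled Adipo-Pgam1 KO, 9 subunits lay entirely above the controls, which held for 13.3% of the genes tested. With replicate 4 of the labelled arrays left out, 23 subunits were called in place of 14. Without replicates 1, 2 and 3 of the labelled arrays in turn, 1 was called each time, and without control replicates 1, 2 and 3, 5, 2 and 5 were called. With the slide as a fixed block, and equally within the slide that held both genotypes, 30 of 36 subunits stayed higher with a median of 0.35. With the block, 0 subunits were called, but only 184 of all 14149 genes tested were called either, against 2525 without it. The median standard error over the subunits was 0.312 with the block against 0.200 without it. The values with the block and within the slide rest on control replicate 4 alone. At an unadjusted p under 0.05, 2 were higher with the block and 1 within the slide. In BAT, all 36 subunits were called lower within the slide that held both genotypes, with a median of -1.14, which also rests on 1 control, replicate 4.

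The difference between the tissues was tested as an interaction over all 16 arrays, and it passed for all 36 subunits, each more positive in gWAT, against 27.4% of 14820 genes. The median of this difference was 1.76, with 2.23 over the core and 1.70 over the accessory subunits. It was 1.03 under quantile normalization, with 35 subunits called.

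In controls, BAT held more mRNA of each subunit than gWAT. The differences between the tissues in controls ran from 1.39 for Ndufa2 to 3.13 for Ndufs8, and all 36 subunits were called higher in BAT, against 36% of 14820 genes, and lay above gWAT on every control array, which held for 32.7% of genes. The median was 2.26, with 2.72 over the core and 2.20 over the accessory subunits. Ndufs8 and Ndufs1, with 3.13 and 3.04, had the largest differences. In the arrays of Adipo-Pgam1 KO mice, the difference between BAT and gWAT was much smaller. It ran from -0.03 for Ndufb7 to 0.98 for Ndufa8, with a median of 0.50 that was the same over the core subunits and 0.51 over the accessory subunits. All BAT arrays of Adipo-Pgam1 KO mice lay on 1 slide and all labelled gWAT arrays on another, scanned on another day. Among these arrays, tissue, slide and scan day cannot be told apart. Here 22 subunits were called higher in BAT, against 22.9% of genes, and 21 did not overlap, against 21.5%. The test of this change is the interaction, since it is the same contrast. In an alternative added once the data had been seen, replicate 4 was left out in both tissues, and the median was 0.23 with 11 subunits called. It was 0.86 with the slide as a fixed block, with 4 called.

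**Figure D3:**
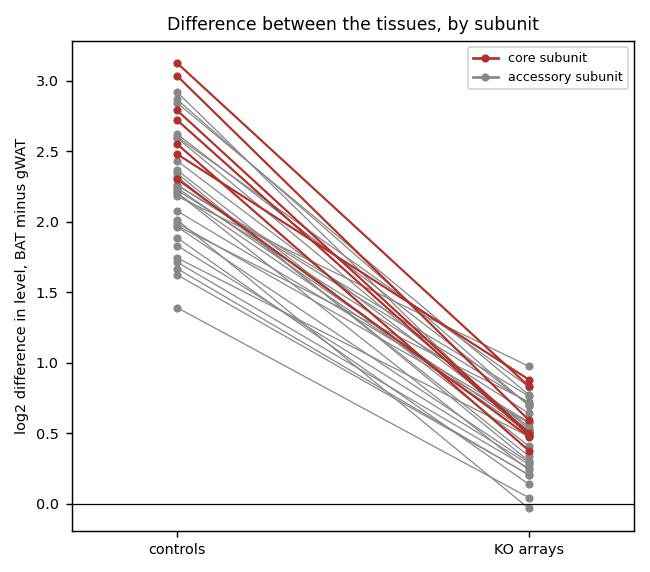
Log2 difference in level between BAT and gWAT (vertical axis) for each of 36 subunits in littermate controls (left) and in arrays of Adipo-Pgam1 KO mice (right), with a line joining each subunit and core subunits in red. All differences of the controls lie from 1.39 up to 3.13, and those of the Adipo-Pgam1 KO arrays from -0.03 up to 0.98.

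The subunits moved together from array to array. The mean level over the 36 subunits was 8.10 to 8.29 on BAT control arrays, 6.76 to 7.28 on BAT arrays of Adipo-Pgam1 KO mice, 5.55 to 6.16 on gWAT control arrays and 5.99 to 6.62 on gWAT arrays labelled Adipo-Pgam1 KO. The BAT groups were thus apart, and the gWAT groups overlapped. The 14-week arrays stood apart in both tissues, each time on the side of the controls. Replicate 4 was the highest of the BAT Adipo-Pgam1 KO arrays for 35 of 36 subunits, and the lowest of the labelled gWAT arrays for all 36. Correlated with the mean of the other 35 subunits after the group means were removed, the subunits had a Pearson's r over 16 arrays between 0.768 for Ndufab1 and 0.989, with a median of 0.949. These correlations are a description, since the subunits share arrays and their scaling.

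**Figure D4:**
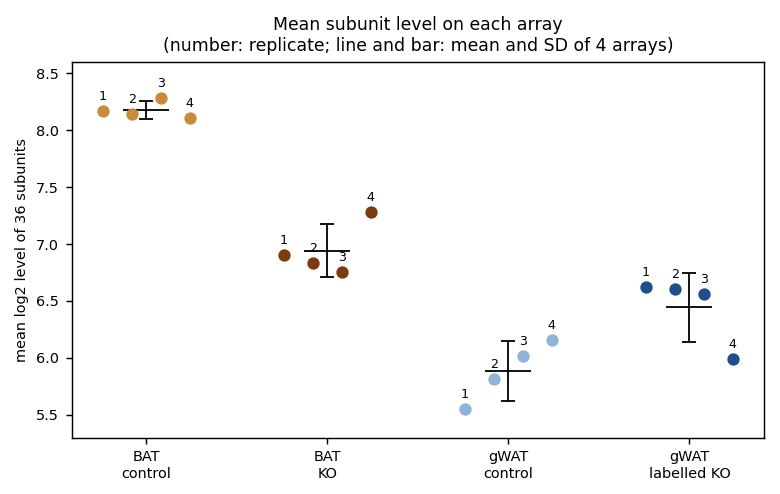
Mean log2 level of 36 complex I subunits (vertical axis) on each of 16 arrays, by group, with the replicate number above each point and the mean and SD of 4 arrays as a line and a bar. Replicate 4 is the highest of the BAT Adipo-Pgam1 KO arrays, at 7.28, and the lowest of the gWAT arrays labelled Adipo-Pgam1 KO, at 5.99.

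Markers of the cells in these depots also differed between the groups. The summed linear signal of 8 adipocyte markers, in units of the array's 75th percentile, was 2655 to 3155 on BAT control arrays and 829 to 1176 on BAT arrays of Adipo-Pgam1 KO mice, with the highest value on replicate 4. The sum of 8 brown adipocyte markers went from 4334 to 4687 in BAT controls to 1418 to 2318 in BAT of the Adipo-Pgam1 KO mice, and the sum of 8 macrophage markers from 26.2 to 38.2 to 96.8 to 146. Each of these 24 markers was well above background on all BAT arrays. In gWAT, the adipocyte markers stood at 2344 to 3670 in controls and at 1965 to 2779 on the labelled arrays, with the lowest value on replicate 4, and the brown adipocyte markers at 28.6 to 64.9 and at 129 to 333. The macrophage markers in gWAT were 63.5 to 87.0 in controls and 71.9 to 234 on the labelled arrays, with the highest value again on replicate 4. Of the brown adipocyte markers, Zic1 was well above background on 0 gWAT arrays, and Ucp1 on 0 of 4 control and 3 of 4 labelled gWAT arrays. The part of these cells in the results was not tested. In bulk tissue, fewer cells of a type and less RNA per cell cannot be told apart. The 13 skeletal muscle markers summed to 164 and 29.6 on replicates 1 and 3 of the BAT Adipo-Pgam1 KO arrays and to at most 2.95 on the other BAT arrays. In gWAT, they summed to 4.73 to 27.0 in controls and to 31.4 to 59.4 on the labelled arrays, without overlap. Acta1, the brightest of them there, had log2 levels of 1.33 to 4.56 in controls and 4.88 to 5.85 on the labelled arrays. Of 8 muscle markers tested in gWAT, 5 were lower and 3 higher, with 0 called and a median of -0.22. The part of muscle in the result was not tested. With replicates 1 and 3 of the BAT Adipo-Pgam1 KO arrays left out, all 36 subunits were called lower in BAT, with a median of -1.05. This alternative was likewise added once the data had been seen. The sums of 6 endothelial and 7 lymphocyte markers reached at most 42.1 and 3.58 on any array, the 42.1 on replicate 4 of the labelled gWAT arrays. Of the endothelial markers, 0 were called between the genotypes in either tissue. In BAT, 2 of 4 lymphocyte markers tested were called higher in Adipo-Pgam1 KO mice and 0 lower, against 27.5% and 34% of all genes tested. On the BAT arrays, 5 of 6 epididymis markers were well above background on 0 arrays. In gWAT, 4 of the 6 epididymis markers were well above background on control replicates 1 and 4 and on labelled replicates 3 and 4, with sums of up to 3.77 in controls and 3.62 on the labelled arrays.

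The genes that build complex I fell with it in BAT. Of 17 listed assembly factors, 16 could be tested, and 15 of these, against 34% of all genes tested, were called lower in BAT of the Adipo-Pgam1 KO mice, with a median of -1.03, which was -0.48 with 10 called lower and 1 higher under spike-in scaling. Foxred1 changed most, from 5.26 to 5.44 in controls to 3.55 to 3.93 in Adipo-Pgam1 KO mice, a difference of -1.63 (standard error 0.11, adjusted p = 1.26e-05). Timmdc1, which helps to assemble the membrane arm, differed by -1.21 (adjusted p = 4.73e-04), and Ndufaf5, which modifies Ndufs7, by -1.19 (adjusted p = 2.31e-04). Ndufaf8, the partner of Ndufaf5, was the 1 factor not called in BAT, with 0.30 (adjusted p = 0.264). In gWAT, the median was 0.45 and 14 of 16 factors were positive on the arrays labelled Adipo-Pgam1 KO. However, 1 was called in each direction, against 9.99% of all genes called higher and 7.85% called lower. Under spike-in scaling, 14 factors were called higher and 0 lower there, and when centred on array medians 1 higher and 0 lower. The counts were 6 and 1 under quantile normalization, and 8 and 1 with Actb and Rplp0 scaling. Ndufaf5 rose by 0.91 in gWAT (standard error 0.22, adjusted p = 0.0279), past the threshold in 2 of 8 fits that each left out 1 array. Ndufaf8 differed by -0.81 (standard error 0.20, adjusted p = 0.0273), past it in 3 of 8. Under spike-in scaling, with -0.37, and when centred on array medians, with -0.69, Ndufaf8 did not pass in gWAT.

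The other complexes of the chain had medians near those of complex I. In BAT these were -1.10 for complex II over 4 genes, -1.16 for complex III over 9, -1.08 for complex IV over 9 and -0.97 for complex V, the ATP synthase, over 14. All genes of complexes II, III and IV were called lower there, and 12 of 14 genes of complex V were called lower and 1 higher. The gene called higher was Atp5g1, with 2.27. Of all genes tested in BAT, 34% were called lower and 27.5% higher. In gWAT, the medians on the labelled arrays were 0.68, 0.61, 0.69 and 0.41. There 3 of 4, 4 of 9, 5 of 9 and 3 of 14 genes were called higher, against 9.99% of all genes tested. The BAT medians of complexes IV and V were -0.35 and -0.26 under quantile normalization, with 6 of 9 and 9 of 14 genes called lower, and 7 of 9 genes of complex III were then called lower. When centred on array medians, 1 gene of each of these complexes was called higher in gWAT. Under spike-in scaling, 4, 9, 9 and 14 genes of complexes II to V were called higher there, and with Actb and Rplp0 scaling 4, 7, 6 and 6. No median of these 4 lists changed sign in either tissue under quantile normalization, centring on array medians, spike-in scaling and scaling by Actb and Rplp0. Ndufa4 and Ndufa4l2, which share only the symbol with complex I, differed by -1.30 (standard error 0.12, adjusted p = 4.65e-05) and by -0.70 (standard error 0.13, adjusted p = 0.00138) in BAT. Ndufa4l2 did not pass in BAT under spike-in scaling, with -0.16, or with the slide as a fixed block, with -0.47. In gWAT, Ndufa4 differed by 0.20 (adjusted p = 0.533) and Ndufa4l2 by 0.16 (adjusted p = 0.651), and neither passed.

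Of 8 factors known to drive genes of the respiratory chain, 3 were called lower and 2 higher in BAT, near the 34% and 27.5% of all genes tested. Ppargc1b, a coactivator of mitochondrial genes, went from 5.18 to 5.58 in controls to 2.82 to 3.93 in Adipo-Pgam1 KO mice, a difference of -1.94 (standard error 0.22, adjusted p = 1.19e-04). Its relative Pprc1 rose from -0.65 to 0.47 in controls to 1.15 to 1.58, by 1.5 (standard error 0.23, adjusted p = 5.08e-04). Nrf1, a transcription factor of these genes, rose by 0.71 (standard error 0.14, adjusted p = 0.00237), but did not pass with Actb and Rplp0 scaling, with 0.12, or with the slide as a fixed block, with 0.61. Esrra and Tfam, named after their values were seen, were the other genes called lower, with -0.59 and -0.65, and neither passed under spike-in scaling, with -0.05 and -0.11. Ppargc1a, Gabpa and Yy1, likewise named after their values were seen, were not called in BAT, with 0.63, -0.08 and -0.05. Under spike-in scaling these 3 were called higher, with 1.18, 0.46 and 0.49. With Actb and Rplp0 scaling, Gabpa and Yy1 were called lower, with -0.67 and -0.64, and Ppargc1a did not pass, with 0.04. In gWAT, 0 of the 8 were called by limma, against 9.99% of all genes called higher and 7.85% called lower. At an unadjusted p under 0.05 there were 2 in limma, 1 in each direction, and 2 by the methods' t-test, both lower. The share of all genes at that unadjusted threshold was not counted. Under spike-in scaling, Esrra and Tfam were called higher in gWAT, with 1.0 (adjusted p = 0.0167) and 0.66 (adjusted p = 0.0147).

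**Figure D5:**
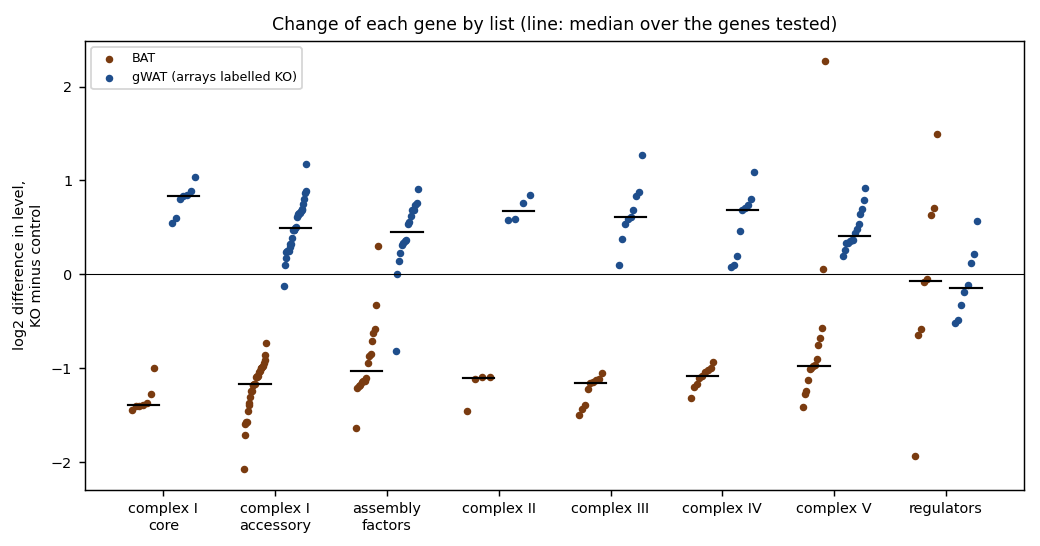
Log2 difference in level between Adipo-Pgam1 KO and littermate control arrays (vertical axis) for each gene of 8 lists (horizontal axis), in BAT (brown) and gWAT (blue), with the median over the genes tested as a line. The medians of complexes I to V lie below 0 in BAT and above 0 in gWAT, and those of the regulators lie at -0.07 and -0.15.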

How the data were processed

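RNA from BAT and gWAT was hybridised to 16 Agilent 1-colour arrays, 4 per tissue and genotype. The authors deposited 1 output of Feature Extraction 10.7.1.1 (per the labels) for each array. The processed signal in it is a linear intensity after subtraction of the background. The deposited files also hold the median intensity of each spot and of its background, and marks (scored 0 or 1, of no unit) for spots well above background, saturated or irregular. A table of normalized ratios to the 75th percentile, made in GeneSpring and deposited by the authors, was used as an alternative, and differed from the scaling used here by at most 0.00504 (log2) in its median per array. The labels give 100 ng of RNA per array, and the study's methods another amount. All value columns were mapped to samples.

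Irregular spots were dropped, spots of 1 probe averaged, and the log2 intensity was set against the log2 of the 75th percentile of all non-control probes on that array. No spot was saturated, and well above background were 50.0% to 62.2% of probes, counted where at least 0.5 of their spots were. Precision is limited by how many arrays there are. The files pair probes with accessions, and 32994 of 35886 RefSeq probes (91.9%) matched a symbol in the RefSeq table of GRCm38.p6, which served for names only because the array was designed on mm9. Genes entered a test if all 4 arrays of some group had them well above background.

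Genotypes were compared within a tissue, and the interaction and the tissues over 4 group means, with limma 3.58.1 in R 4.3.3 and Benjamini-Hochberg adjustment, and the fit was checked on simulated data. Normexp (offset 50) used the median signal, the signal the files give. The members and lists were chosen with earlier results of these data known. Named genes were the core subunits (values of 1 are not reported here), the 5 accessory subunits with the largest differences past the threshold in each direction in BAT, gWAT and the interaction, any member that did not pass in BAT or went against the majority, Ndufa4, Ndufa4l2, Pgam1, and the 3 assembly factors and regulators with the largest differences. Genes at the ends of a range and genes holding a motif were named besides. Alternatives were other scalings, background correction, filters, probe summaries, the slide, the replicate number as a block, other tests and leaving out arrays.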

Additional observations from a re-analysis of the deposited data

Results flagged for a closer look

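Of 152 sets of 4 arrays (38 members in 4 groups), 26 held an array whose distance to its nearest neighbour exceeded Dixon's critical share of the range of the set, where chance gives about 1 in 20, or 7.6. All 26 lay in arrays of Adipo-Pgam1 KO mice, and in each the array apart was replicate 4, from mice of 14 weeks. In BAT, where replicate 4 was the highest, the share of the range was 0.931 for Ndufa12, 0.842 for Ndufa3, 0.861 for Ndufa6, 0.963 for Ndufb10, 0.860 for Ndufb6 and 0.875 for Ndufs8. In gWAT, where replicate 4 was the lowest, it was 0.846 for Ndufa10, 0.872 for Ndufa13, 0.911 for Ndufa3, 0.926 for Ndufa6, 0.928 for Ndufa8, 0.838 for Ndufa9, 0.905 for Ndufb11, 0.893 for Ndufb2, 0.845 for Ndufb6 and 0.851 for Ndufb8. For the other gWAT members it was 0.971 for Ndufb9, 0.930 for Ndufc1, 0.841 for Ndufc2, 0.869 for Ndufs4, 0.873 for Ndufs5, 0.944 for Ndufs6, 0.855 for Ndufs8, 0.860 for Ndufv1, 0.868 for Ndufv2 and 0.930 for Ndufv3. The subunits share arrays and are not independent. The mean over the 36 subunits in gWAT also had replicate 4 apart, with a share of 0.902. The core mean minus the accessory mean in BAT of Adipo-Pgam1 KO mice had replicate 1 apart, with a share of 0.857 and a value of 0.152 against -0.03 to -0.0038 on the other arrays. Replicate 1 was the array with the most skeletal muscle marker signal, and the part of age and of muscle in these values was not tested.

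The difference between Adipo-Pgam1 KO and control arrays was more positive in gWAT than in BAT by the interaction in limma for each of the following genes, in which gWAT rests on its label. Of the core subunits, it was 2.44 for Ndufs1, 1.83 for Ndufs3, 2.17 for Ndufs7, 2.29 for Ndufs8, 2.29 for Ndufv1 and 1.60 for Ndufv2. Among the accessory subunits, it was 2.44 for Ndufa10, 2.17 for Ndufab1, 2.07 for Ndufb5, 2.06 for Ndufc1, 2.05 for Ndufb7 and 1.27 for Ndufv3. It was 1.5 for Ndufa4, 0.87 for Ndufa4l2 and 2.69 for Pgam1. The highest adjusted p over the 36 subunits was 0.00103. Each of these genes stayed past the threshold in all 16 fits that left out 1 array. Ndufv3 did not pass under quantile normalization, with 0.33, or with the slide as a fixed block, with 0.94, and Ndufa4l2 did not pass under spike-in scaling, with 0.76, or with that block, with 0.82.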

How the results depend on the processing

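In BAT, 35 or 36 subunits were called lower under all 26 alternatives, and the median was -0.68 under quantile normalization, -0.64 under spike-in scaling and -1.77 with Actb and Rplp0, while the median of all genes was 0.02, 0.46 and -0.67. The core minus the accessory median in BAT was -0.23, and -0.31 with the mean of all probes. In gWAT, where 14 subunits were called, the count was 5 when centred on array medians, 35 under spike-in scaling, 3 without the filter on dim probes, 0 with the slide as a fixed block and within the slide, 22 with both tissues in 1 fit, 22 by the methods' t-test unadjusted and 5 after Benjamini-Hochberg, and 1 to 23 when single arrays were left out. With the slide as a fixed block, 184 of all 14149 genes tested were called, against 2525 without it. The cause of these changes in count was not tested. The gWAT median was 1.04 under spike-in scaling, 0.35 under quantile normalization and positive under every alternative run, and the core minus accessory median of 0.34 was 0.27 with the slide as a fixed block and within the slide. The median of the interaction was 1.03 under quantile normalization, 2.29 with Actb and Rplp0, 1.42 with the slide as a fixed block and 2.05 without the mice of 14 weeks, and 31 to 36 subunits were called.

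Between the tissues in controls, the median was 1.37 under quantile normalization, 2.01 under spike-in scaling and 2.59 with Actb and Rplp0, and all 36 subunits were called throughout. The core minus accessory median there, 0.52, was 0.48 under quantile normalization, 0.49 with the slide as a fixed or a random block and 0.47 to 0.53 when single arrays were left out. Between the tissues in Adipo-Pgam1 KO arrays, the count of 22 was 10 when centred on array medians, 14 with Actb and Rplp0, 4 with the slide as a fixed block, 11 without the mice of 14 weeks and 13 to 23 when single arrays were left out, with 13 without replicate 4 of the BAT arrays. The median was 0.86 with that block and 0.23 without those mice. Signs turned in gWAT for Ndufa4, with -0.041 under quantile normalization and -0.043 with the slide as a fixed block and within the slide, for Ndufv3, with 0.31 under spike-in scaling and 0.00086 without replicate 4 of the labelled arrays, and for Ndufa4l2, with -0.044 without that array and 0.10 to 0.287 when other single arrays were left out.

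Replicate numbers were not taken to pair the arrays, since correlations of same-numbered deviations ran from -0.16 to 0.55 between the genotypes in gWAT, from 0.0087 to 0.19 in BAT and from -0.12 to 0.25 between BAT and gWAT. With the replicate block, 36 subunits were called in BAT and 1 in gWAT. The median standard error over the subunits was 0.134 in BAT and 0.200 in gWAT.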

Other observations

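Replicate 4 also lay at the end of the Adipo-Pgam1 KO arrays for Pgam1, the targeted gene, in each tissue. Its log2 level was 6.20, 6.13, 6.03 and 6.43 in BAT of the Adipo-Pgam1 KO mice, against 7.94, 7.93, 8.07 and 7.82 in BAT controls, and replicate 4 was the highest. In gWAT it was 6.50, 6.42, 6.38 and 5.95 on the labelled arrays, against 5.07, 5.15, 5.67 and 5.56 in controls, and replicate 4 was the lowest. The difference in Pgam1 between BAT and gWAT was 2.58 in controls (standard error 0.16, adjusted p = 4.67e-09) and -0.12 in Adipo-Pgam1 KO arrays (standard error 0.16, adjusted p = 0.562), beside medians of 2.26 and 0.50 over the subunits.

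The mean log2 level of the core subunits minus that of the accessory subunits, which depends on the probes and is read only between arrays, was 0.12 to 0.17 on BAT control arrays and -0.41 to -0.34 on gWAT control arrays. In BAT of the Adipo-Pgam1 KO mice it was -0.03 to 0.15, which overlaps the BAT controls through replicate 1, and it was -0.17 to 0.02 on the labelled gWAT arrays. These values were not tested.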
